A study of Mus musculus with 12 samples.

Results

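The constitutive proteasome genes of mouse bone marrow-derived macrophages (BMMs) are described here from RNA-Seq of WT and IGF2BP2 KO cells. Of the 21002 genes in the authors' deposited comparison, every one whose symbol begins with Psma to Psmg followed by a digit was taken. The immunoproteasome subunits Psmb8, Psmb9 and Psmb10 were left out. This gave 48 genes, all present among the 38887 genes deposited for each library. Genes absent from that comparison could not be taken. The rule itself uses no expression value. Of the 48 genes, 14 encode the core particle (7 of the alpha ring, 7 of the beta ring), 17 the regulatory particle (6 ATPases, 11 non-ATPases), and 12 are assembly chaperones, activators or the inhibitor. The remaining 5 match the name pattern but were set apart by what they encode: Psma8, a testis form of an alpha subunit, Psmb11, a thymus form of a beta subunit, Psme2b, a near copy of Psme2, and Psmc3ip and Psme3ip1, which are named after proteasome proteins but are not subunits.

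The 26S proteasome degrades proteins that carry ubiquitin chains. Its barrel-shaped core holds the proteolytic sites inside the beta rings, the alpha rings control entry, and the regulatory particle binds the chain, removes it and unfolds the substrate with its ATPases. In cells exposed to interferon, the catalytic subunits Psmb5, Psmb6 and Psmb7 can be replaced by Psmb8, Psmb9 and Psmb10, which changes the peptides that reach MHC class I molecules.

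The data comprised 12 poly(A)-selected libraries, 3 each of WT M0, IGF2BP2 KO M0, WT M2 and IGF2BP2 KO M2 macrophages, where M0 cells were left untreated and M2 cells received 20 ng/ml IL-4 for 8 h. Both genotypes came from mice of 3 to 4 months, and all cultures, M0 included, were differentiated and kept with M-CSF. In KO mice, loxP sites flank exons 4 and 5 of Igf2bp2 and Cre is expressed from the Lyz2 locus, which directs deletion mainly, but not exclusively, to myeloid cells, while the WT littermates had no floxed allele and carried Cre in some animals only. Effects of the deletion and of the Cre allele therefore cannot be told apart. The labels only number the libraries, but the study gives mice as the replicates of each group. M0 and M2 libraries of the same number were taken to come from the same mouse. The main fit had no mouse term, so its p-values, those for IL-4 included, rest on the spread between mice within a group. A fit with the mouse as a block was an alternative.

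Total counts per library ranged from 20011792 in WT M2 to 39632770 in KO M2, and the 48 genes took between 0.583% and 0.671% of them. Genes of macrophages (Adgre1, Csf1r, Cd68, Itgam, Mertk and Fcgr1) summed to 4330 to 5620 CPM (counts scaled to library size with TMM factors) in each library. Of 6 lymphoid genes, 2 were at 0 in every library, and the sum was at most 0.106 CPM. Granulocyte genes summed to 9.46 to 24.2 CPM in WT M0 and 6.00 to 6.50 CPM in KO M0, and stromal genes to 29.8 to 53.3 and 7.94 to 30.0 CPM. In M2, stromal genes summed to 32.8 to 60.2 CPM in WT and 9.02 to 26.6 CPM in KO, without overlap, and granulocyte genes to 5.06 to 14.3 and 5.50 to 6.80 CPM. Their part in the genotype differences was not tested. Igf2bp2 itself had 118, 99.7 and 76.5 CPM in WT M0 and 95.9, 84.9 and 91.6 CPM in KO M0, with overlapping groups. In M2 the WT libraries had 221, 233 and 178 CPM and the KO libraries 146, 129 and 129 CPM, so that it was lower in every KO library (log2 difference -0.65, SE 0.13, edgeR adjusted p = 0.0285). Counts of the whole gene include its undeleted exons and check the deletion only in part. Lyz2, from whose locus Cre is expressed, had at least 4185 CPM in every WT library and at most 33.2 CPM in every KO library.

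Promoter sequences of 4 genes are given to show the motif that was most common among these promoters, and a second motif known from proteasome genes. CCGGAA is the core bound by ETS transcription factors, and TGACNNNGC is the core of the antioxidant response element, to which NFE2L1 and NFE2L2 bind. Psmg1, Psmc5, Psmd6 and Psmb6 were chosen because they rose with IL-4 in both genotypes and hold a match within the 100 bases before the more upstream of their RefSeq and GENCODE starts. Sequences are from RefSeq on GRCm38.p6, 5′ to 3′ on the strand of the gene, and capitals mark the match.
Psmg1, chr16:95990961-95991060, minus strand: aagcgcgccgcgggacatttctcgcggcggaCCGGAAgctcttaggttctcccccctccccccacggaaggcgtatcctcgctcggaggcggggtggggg
Psmc5, chr11:106256054-106256153, plus strand: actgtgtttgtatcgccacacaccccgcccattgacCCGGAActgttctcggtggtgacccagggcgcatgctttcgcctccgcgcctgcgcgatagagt
Psmd6, chr14:14120985-14121084, minus strand: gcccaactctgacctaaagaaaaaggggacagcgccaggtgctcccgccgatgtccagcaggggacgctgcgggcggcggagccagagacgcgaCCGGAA
Psmb6, chr11:70525257-70525356, plus strand: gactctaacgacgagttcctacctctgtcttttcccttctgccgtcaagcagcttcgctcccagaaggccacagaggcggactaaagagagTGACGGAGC

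For 36 of the 43 genes not set apart a RefSeq window of 250 bases before to 50 bases after the start was at hand, and 4 motifs were searched there on both strands. CCGGAA was present in 20 of 36 windows (55.6%), against 16.7% of the windows of all 27025 genes and 32.3% of the 9691 windowed genes that were also tested for expression. By role, it was present in 10 of 14 windows of the regulatory particle, among them Psmc1, Psmc2, Psmc5, Psmc6, Psmd2 and Psmd6, in 4 of 11 of the core particle and in 6 of 11 of the chaperones and regulators. TGACNNNGC was present in 6 of 36 (16.7%: Psmb5, Psmb6, Psmc6, Psmd12, Psmd9 and Psme4), against 17.0% of tested genes. CCAAT, the box bound by NF-Y, was present in 12 of 36 (33.3%), against 43.3% of tested genes, and 6 of these 12 belonged to the core particle. The cAMP response element TGACGTCA was present in 0 of 36, against 3.57% of tested genes. These matches are a description of the letters in the windows and not of binding.

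The levels of the subunits lay close together. On the TPM scale, which is relative to transcript length, means over the 12 libraries ran from 209 (Psma5) to 383 (Psma6) in the alpha ring and from 216 (Psmb2) to 436 (Psmb4) in the beta ring, so that the highest core level was 2.09 times the lowest. The other alpha subunits had mean levels of 230 (Psma4), 265 (Psma1), 273 (Psma7), 348 (Psma2) and 366 TPM (Psma3). In the beta ring, Psmb3 was at 245, Psmb1 at 264, Psmb7 at 291, Psmb5 at 325 and Psmb6 at 390 TPM.

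The ATPases, which form the hexameric base ring of the regulatory particle, had mean levels of 136 (Psmc6), 166 (Psmc2), 183 (Psmc4), 194 (Psmc5), 263 (Psmc3) and 287 TPM (Psmc1). Of the non-ATPases, 9 had levels between 121 (Psmd11) and 187 TPM (Psmd13), with Psmd3, Psmd6, Psmd7, Psmd12, Psmd4, Psmd1 and Psmd14 between these. The scaffold subunit Psmd2 at 328 TPM and the lid subunit Psmd8 at 402 TPM stood above the rest. Genes that act on the particle without being part of it were lower: 26.2 to 61.0 TPM for the chaperones Psmd9, Psmd10 and Psmd5 of the base, 37.6 to 50.2 TPM for the core chaperones Psmg1 to Psmg4, and 35.2 TPM for the inhibitor Psmf1. The activators spanned a wider range, with Psme2 at 440, Psme1 at 254, Psme3 at 159 and Psme4 at 42.3 TPM. Psma8 had 1.53 to 2.92 TPM, Psmb11 at most 0.02 TPM, and Psme2b, Psmc3ip and Psme3ip1 had means of 11.8, 20.9 and 51.3 TPM.

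**Figure D1:**
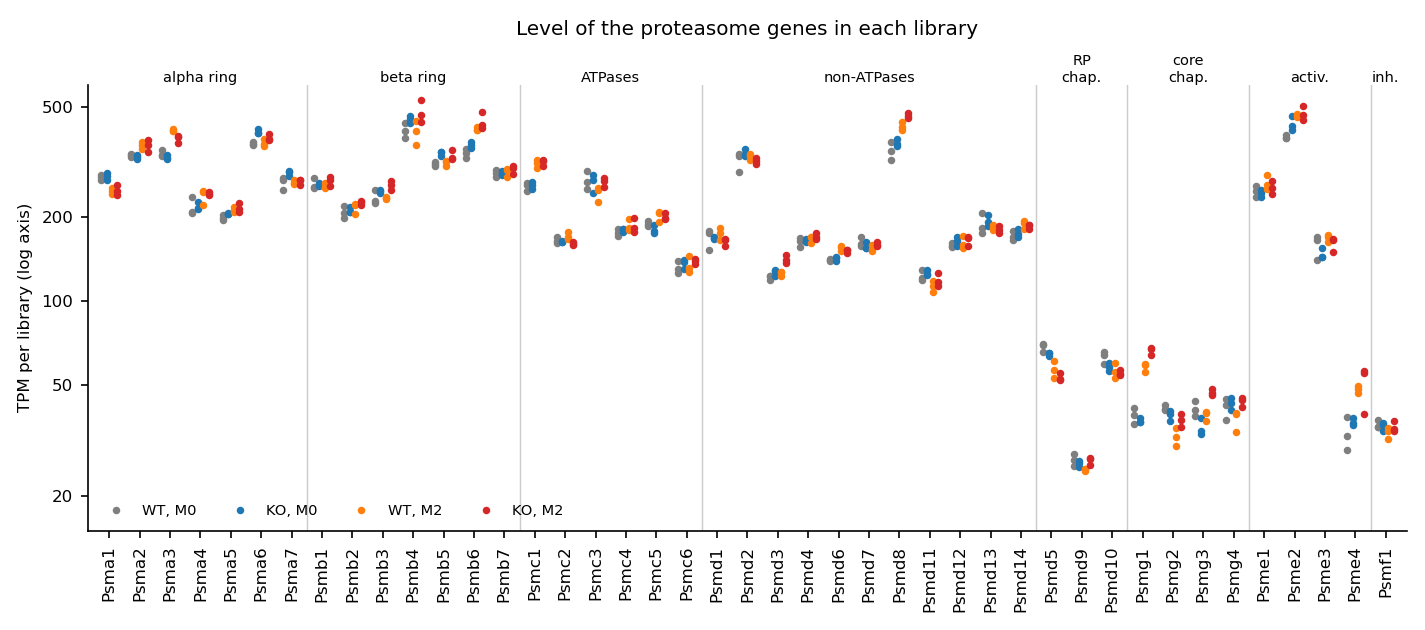
TPM (log axis) of the 43 genes in each of the 12 libraries, grouped by role (RP chap., chaperones of the regulatory particle; core chap., chaperones of the core; activ., activators; inh., inhibitor), with 1 point per library coloured by group. The 31 subunits of the core and regulatory particles lie above 100 TPM in every library, while the chaperones, Psme4 and the inhibitor lie below 100 TPM.

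Libraries of 1 group differed little. The coefficient of variation within a group had a median of 3.16% over 172 values (43 genes in 4 groups) and reached 18.7%. Summed over the 14 core genes, the level of untreated cells was 4059 ± 127 TPM for WT and 4229 ± 24.9 TPM for KO, and that of M2 cells 4250 ± 36.9 and 4420 ± 170 TPM (mean ± SD, n = 3). The 17 genes of the regulatory particle summed to 3261 ± 78.6 and 3325 ± 45.1 TPM without IL-4, and to 3437 ± 45.6 and 3496 ± 6.63 TPM with it. TPM are shares of a library, and in bulk RNA a higher share in every cell cannot be told apart from a different makeup of cells.

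IL-4 raised a set of subunits by small amounts in both genotypes. Among the 43 genes, 17 rose and 2 fell in WT macrophages, and 18 rose and 1 fell in IGF2BP2 KO macrophages (edgeR quasi-likelihood test, adjusted p under 0.05 over all 12846 genes tested). Of all genes tested, 24.9% rose and 25.1% fell with IL-4 in WT, and 26.8% rose and 26.0% fell in KO. The share of proteasome genes that rose was thus above this background in both genotypes, and the share that fell was below it. Their changes were small, with a median log2 fold change over the 31 subunits of 0.11 in WT and 0.13 in KO, where the median over all tested genes was -0.01 and 0.01. Counted as single particles, 5 of 14 core genes and 7 of 17 regulatory genes rose in WT, 6 and 6 in KO, and 0 fell in either genotype.

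On the log2(TPM + 1) scale, limma called fewer genes and more of them lower: 10 of all 47 genes tested rose and 5 fell in WT, and 12 rose and 3 fell in KO. In these limma fits 17.7% of all genes tested rose and 26.7% fell in WT, and 17.8% rose and 27.7% fell in KO, so that in WT the share of proteasome genes that rose was nearer to the background. Over the same 47 genes, edgeR called 18 higher and 3 lower in WT and 19 higher and 2 lower in KO. Psma1, an alpha subunit, was called lower on the TPM scale in both genotypes (log2 fold change -0.17 in WT and -0.16 in KO), but with edgeR it had -0.11 (SE 0.06, adjusted p = 0.131) and -0.08 (SE 0.05, adjusted p = 0.244). Over the 15 other fits of each IL-4 comparison, which include those without 1 library, 7 of the 43 genes kept their call and direction in both genotypes: Psma3, Psmb6, Psmc1, Psmd8, Psmg1, Psme4 and Psmd5. In WT, 7 genes lost their call without at least 1 of the libraries (Psma4, Psma5, Psmc4, Psmc5, Psmd2, Psme1 and Psme3), all 7 of them without WT M2 library 2 and 6 without WT M0 library 1. In KO these were Psma4, Psma5, Psmb2 and Psme1, all 4 of them without KO M2 library 1.

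In the core particle, Psma3, an alpha subunit, rose most clearly. It had 152, 154 and 170 CPM in WT M0 and 198, 202 and 198 CPM in WT M2, and 150, 153 and 157 CPM in KO M0 and 201, 178 and 191 CPM in KO M2. All M2 values were above all M0 values, with a log2 fold change of 0.33 in WT (SE 0.06, edgeR adjusted p = 0.000266) and 0.31 in KO (SE 0.05, edgeR adjusted p = 0.000431). Psma2, Psma4 and Psma5 also rose in both genotypes, by log2 fold changes of 0.15 to 0.24, whereas Psma6 and Psma7 had values between -0.02 and 0.07 and did not pass the test. Of the 15 other fits, Psma4 kept its call in 5 in WT and 13 in KO, and Psma5 in 9 in WT and 7 in KO.

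The 3 constitutive catalytic subunits did not move alike. Psmb6, the caspase-like subunit, had 125, 132 and 145 CPM in WT M0 and 170, 170 and 174 CPM in WT M2. In KO it had 140, 146 and 149 CPM in M0 and 208, 171 and 178 CPM in M2, so that M0 and M2 did not overlap in either genotype. Its log2 fold change with IL-4 was 0.36 in WT (SE 0.07, edgeR adjusted p = 0.00118) and 0.36 in KO (SE 0.07, edgeR adjusted p = 0.00102).

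Psmb5, the chymotrypsin-like subunit, had 130, 134 and 145 CPM in WT M0 and 145, 140 and 144 CPM in WT M2, with overlapping groups. Its log2 fold change was 0.07 in WT (95% interval -0.05 to 0.20, edgeR adjusted p = 0.32) and 0.05 in KO (-0.07 to 0.17, edgeR adjusted p = 0.471). Psmb7, the trypsin-like subunit, had 161, 170 and 183 CPM in WT M0 and 185, 186 and 173 CPM in WT M2, which also overlapped. Its log2 fold change was 0.08 in WT (-0.05 to 0.21, edgeR adjusted p = 0.297) and 0.13 in KO (-0.004 to 0.26, edgeR adjusted p = 0.0952). In KO, Psmb7 passed in 1 of the 6 fits without 1 library (edgeR adjusted p = 0.0396). Among the non-catalytic beta subunits, Psmb2 rose in KO (0.17, SE 0.06, edgeR adjusted p = 0.0344) but kept its call in only 6 of 15 other fits, and in WT it had 0.11 (edgeR adjusted p = 0.16). Psmb1, Psmb3 and Psmb4 had log2 fold changes of 0.04 to 0.06 in WT and 0.13 to 0.15 in KO. With the paired mouse number as a block, Psmb3 and Psmb4 passed in KO (edgeR adjusted p = 0.0453 and 0.045).

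In the regulatory particle, Psmc1, an ATPase, had 192, 209 and 217 CPM in WT M0 and 261, 267 and 251 CPM in WT M2. Its KO values were 201, 215 and 211 CPM in M0 and 268, 265 and 266 CPM in M2. The log2 fold changes were 0.33 (SE 0.05, edgeR adjusted p = 0.000119) and 0.35 (SE 0.05, edgeR adjusted p = 6.67e-05), and the groups did not overlap. Psmd8, a lid subunit, rose by 0.36 in WT (SE 0.07, edgeR adjusted p = 0.00103) and 0.41 in KO (SE 0.07, edgeR adjusted p = 0.000326), from 252 ± 27.9 to 322 ± 10.6 CPM and from 270 ± 10.1 to 359 ± 19.2 CPM (mean ± SD, n = 3).

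Psmc5, Psmd6 and Psmd14 rose in both genotypes as well, although Psmc5 in WT kept its call in 8 of 15 other fits (0.09 on log2(TPM + 1), limma adjusted p = 0.101). Psmd14 is the subunit that cleaves the ubiquitin chain from the substrate, and its log2 fold change was 0.17 in WT (edgeR adjusted p = 0.00932) and 0.17 in KO (edgeR adjusted p = 0.00866), where limma on log2(TPM + 1) gave 0.08 (adjusted p = 0.138). Psmc4 (0.14, edgeR adjusted p = 0.0436) and Psmd2 (0.11, edgeR adjusted p = 0.0473) were called in WT alone, each in 5 of the 15 other fits, and Psmd3 in KO alone (0.23, SE 0.05, edgeR adjusted p = 0.00116). In WT, Psmd3 had 0.10 (edgeR adjusted p = 0.0906) and passed without WT M0 library 3 (0.14, edgeR adjusted p = 0.0264). With the mouse block, Psmc2, Psmd1 and Psmd12 passed in WT (edgeR adjusted p = 0.0439, 0.0123 and 0.0378) and Psmc6 in KO (edgeR adjusted p = 0.0285). Psmc3, Psmd4, Psmd7, Psmd11 and Psmd13 passed in neither genotype, with log2 fold changes between -0.08 and 0.13.

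The changes with the largest size lay outside the 2 particles. Psmg1 (chr16:95979933-95990960, minus strand, GRCm38) encodes a chaperone that pairs with Psmg2 to guide formation of the alpha ring. It had 20.2, 18.9 and 23.0 CPM in WT M0 and 30.6, 32.5 and 33.1 CPM in WT M2, and 19.3, 20.4 and 19.7 CPM in KO M0 and 39.7, 37.4 and 35.5 CPM in KO M2. The log2 fold change was 0.63 in WT (SE 0.07, edgeR adjusted p = 1.31e-05) and 0.92 in KO (SE 0.07, edgeR adjusted p = 2.83e-07). Psme4, which encodes the nuclear activator PA200, rose from 112 ± 15.3 to 174 ± 5.78 CPM in WT and from 123 ± 2.49 to 173 ± 25.7 CPM in KO (log2 fold changes 0.63 and 0.49, edgeR adjusted p = 0.000259 and 0.00153).

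All 4 activators rose in both genotypes with edgeR. Psme1 and Psme2, which together form the PA28 cap, rose by 0.15 and 0.28 in WT and by 0.15 and 0.21 in KO, and Psme3, the nuclear PA28 subunit, by 0.13 and 0.19. The call of Psme1 was kept in 7 of 15 other fits in WT and 9 in KO, that of Psme3 in 5 and 12 and that of Psme2 in 15 and 13. On log2(TPM + 1) Psme2 had 0.13 in KO (limma adjusted p = 0.057). On the TPM scale limma called neither Psme1 nor Psme3 in either genotype. Reads of Psme2 cannot be separated with certainty from those of the near copy Psme2b. Psmd5, a chaperone of the regulatory base, fell in both, from 72.9, 74.6 and 74.1 to 59.7, 60.8 and 61.4 CPM in WT and from 67.7, 70.7 and 68.4 to 61.7, 58.5 and 56.5 CPM in KO (log2 fold changes -0.28 and -0.23, edgeR adjusted p = 0.000159 and 0.000719). The chaperones Psmd9 and Psmd10 and the inhibitor Psmf1 passed in neither with edgeR, with values between -0.10 and 0.11. With limma on log2(TPM + 1), Psmd10 was called lower in WT (-0.16, adjusted p = 0.0364). Of the genes set apart, Psmc3ip, which acts in meiotic recombination, fell by 0.67 on the log2 scale in WT and by 0.79 in KO. Psme3ip1 rose by 0.18 and 0.19, but not on log2(TPM + 1) (limma adjusted p = 0.0817 and 0.106), Psma8 and Psme2b did not pass the test, and Psmb11 was too low to be tested.

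**Figure D2:**
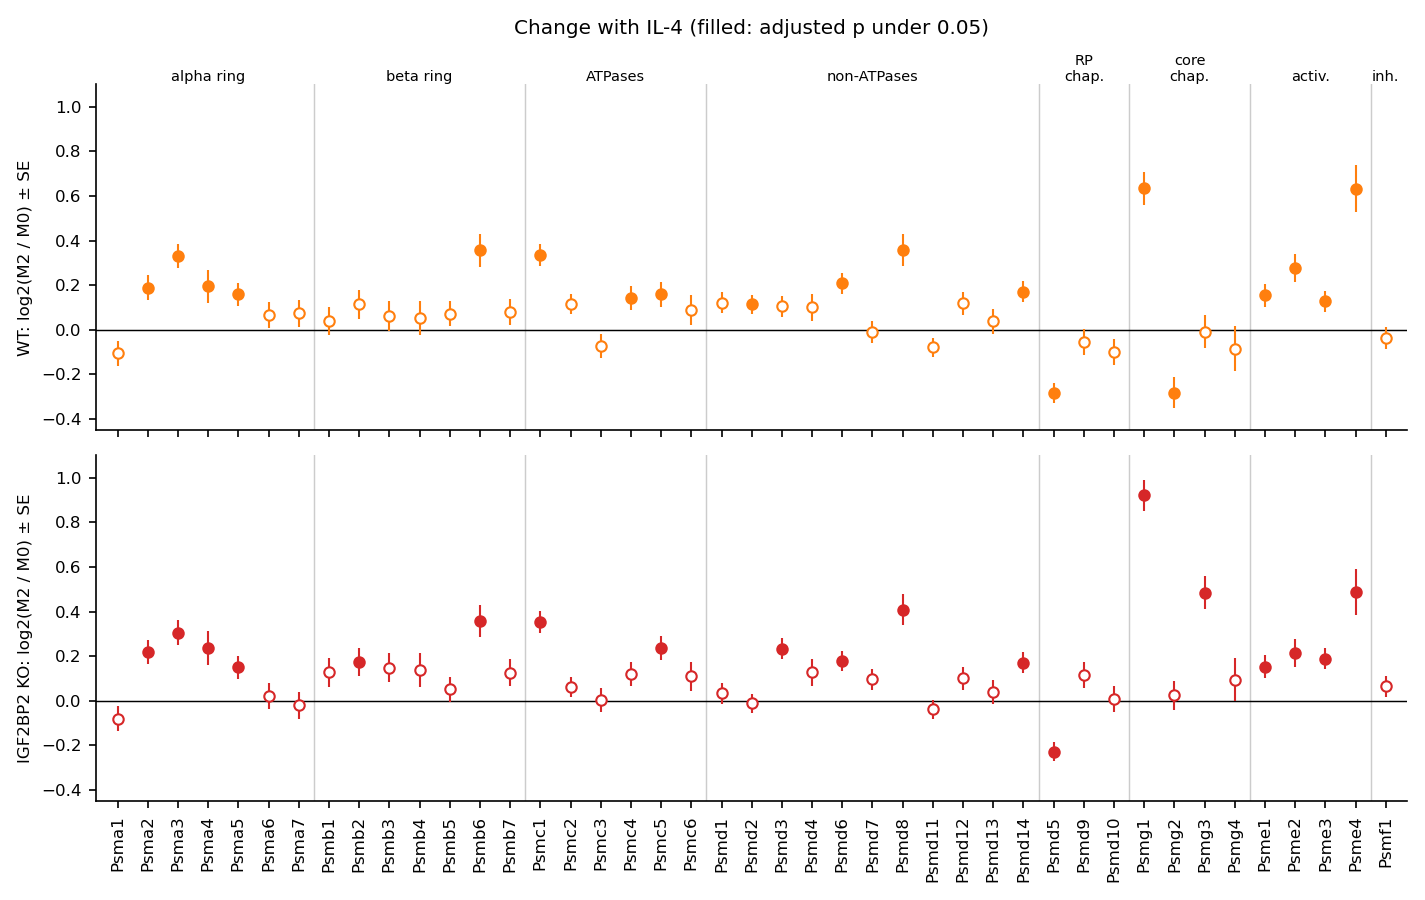
Log2 fold change of M2 against M0 with its SE for each of the 43 genes, in WT (top) and IGF2BP2 KO (bottom), from 3 libraries per group. Filled points passed an edgeR adjusted p under 0.05. Most filled points lie between 0.1 and 0.4, with Psmg1 and Psme4 above and Psmd5 below 0 in both panels.

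Of the 19 genes called in each genotype, 16 were called in both and in the same direction, which is 84.2% of either list. Of all genes called, 5106 were called in both and in the same direction, which is 79.4% of the WT calls and 75.3% of the KO calls. Psmc4, Psmd2 and Psmg2 were called in WT alone and Psmb2, Psmd3 and Psmg3 in KO alone, and the difference itself was tested next. The 2 IL-4 comparisons share no library.

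The IL-4 response differed between the genotypes for 1 of the 47 genes tested, Psmg3, where the background was 3.24% of all genes tested. Psmg3 (chr5:139823592-139826885, minus strand, GRCm38) pairs with Psmg4 as a further chaperone of the alpha ring. Its values were 16.0, 16.5 and 18.9 CPM in WT M0 and 16.8, 17.1 and 17.1 CPM in WT M2, against 15.5, 14.1 and 14.1 CPM in KO M0 and 21.7, 19.6 and 19.8 CPM in KO M2. It was thus level in WT, with overlapping groups, and higher in every KO M2 library than in every KO M0 library.

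The log2 fold change of Psmg3 with IL-4 was -0.01 in WT (SE 0.08, edgeR adjusted p = 0.94) and 0.48 in KO (SE 0.07, edgeR adjusted p = 0.000104), with a difference of 0.49 (SE 0.10, 95% interval 0.27 to 0.72, edgeR adjusted p = 0.026). The call was lost without WT M0 library 2, WT M2 library 2, KO M0 library 2, KO M0 library 3 or KO M2 library 3. Over the 12 fits without 1 library, the difference stayed between 0.41 and 0.54, with edgeR adjusted p between 0.0162 and 0.0735. In the annotation 9.68% of the exon bases of Psmg3 lie in a further gene on the same strand, Gm26938, which was at 0 TPM.

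The other 3 core chaperones had differences of the same sign. Psmg2 had 21.4, 22.7 and 23.3 CPM in WT M0 and 17.0, 18.5 and 19.9 CPM in WT M2, and it fell in WT by 0.28 on the log2 scale (SE 0.07, edgeR adjusted p = 0.00393). In KO its values were 21.2, 20.3 and 22.1 CPM in M0 and 21.2, 21.1 and 22.5 CPM in M2, and the change was 0.03 on the log2 scale (SE 0.06, edgeR adjusted p = 0.774). The difference between the responses of Psmg2 was 0.31 (SE 0.09, edgeR adjusted p = 0.101), and with the mouse block it passed (edgeR adjusted p = 0.0361), which made 2 genes called in that fit. Psmg1 had a difference of 0.29 (SE 0.10, edgeR adjusted p = 0.163) and Psmg4 of 0.18 (SE 0.14, edgeR adjusted p = 0.54).

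None of the 31 subunits of the 2 particles differed in its IL-4 response between the genotypes by edgeR, and 0 had an unadjusted p under 0.05. The lowest adjusted p was 0.319 for Psmd2. DESeq2 called 1 and limma on log2(TPM + 1) called 1 of the 47 genes, as did edgeR. For the catalytic subunits the difference was -0.02 for Psmb5 (95% interval -0.19 to 0.15), 0.00 for Psmb6 (-0.21 to 0.21) and 0.05 for Psmb7 (-0.14 to 0.23). Each interval gives the range of differences compatible with the 3 libraries per group, and the smallest detectable difference was not measured.

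**Figure D3:**
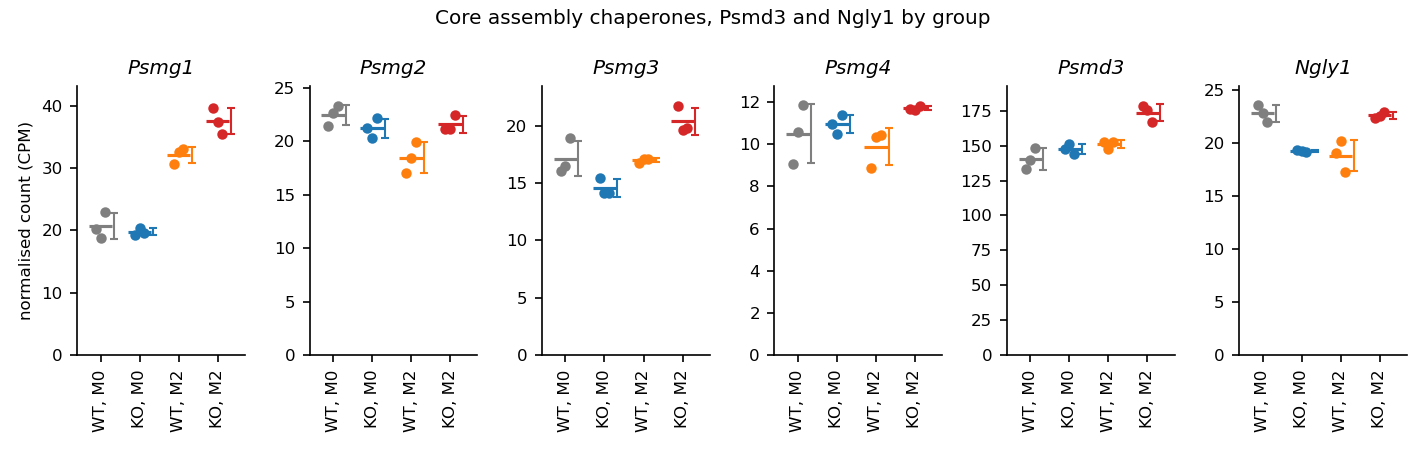
Normalised counts (CPM) of the 4 core assembly chaperones, the lid subunit Psmd3 and the deglycosylase gene Ngly1, with 1 point per library, the group mean as a line and the SD as a bar (n = 3). The KO M2 libraries lie above the WT M2 libraries for all 6 genes.

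In untreated macrophages, loss of IGF2BP2 moved no proteasome gene past the threshold. By edgeR, 0 of the 47 genes tested were called, where 9.78% of all genes tested were, and 6 had an unadjusted p under 0.05. DESeq2 also called 0, and limma on log2(TPM + 1) called 1, Psma6 (log2 fold change 0.15, adjusted p = 0.0344), which had 0.07 with edgeR (SE 0.06, adjusted p = 0.461). Over the 31 subunits the median log2 fold change was 0.03, with 23 values above 0 and 8 below. KO and WT libraries did not overlap for 8 of the 43 genes, against 31.1% of all genes tested.

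The lowest adjusted p in M0 was that of Psmg3, where KO was lower by a log2 value of -0.23 (SE 0.07, edgeR adjusted p = 0.0663), and without WT M0 library 1 it was called (-0.28, edgeR adjusted p = 0.0496). Psmb5 had 150, 152 and 148 CPM in KO M0, all above the WT values given above, and a log2 fold change of 0.14 (SE 0.06, 95% interval 0.02 to 0.26, edgeR adjusted p = 0.142). Psmb6 had 0.11 (-0.04 to 0.27, edgeR adjusted p = 0.349) and Psmb7 0.01 (-0.12 to 0.14, edgeR adjusted p = 0.957). Psmc4, Psmd2, Psmd13 and Psme2 also lay higher in every KO library, and Psmd5, Psmd10 and Psmg3 lower in every KO library, without passing the test.

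In M2 macrophages, 1 of the 47 genes was called between the genotypes, against 2.68% of all genes tested. This was Psmd3, a lid subunit, which lies at chr11:98682554-98695979 on the plus strand (GRCm38). The WT libraries had 152, 148 and 153 CPM, the KO libraries 178, 175 and 167 CPM. All KO values were higher, and the log2 fold change was 0.20 (SE 0.05, 95% interval 0.10 to 0.31, edgeR adjusted p = 0.0488). The call was lost in each of the 6 fits without 1 library (edgeR adjusted p from 0.0721 to 0.179), so that leaving out any 1 of the 6 gave 0 called genes. The stromal genes given above differed between the same libraries, and their part in this difference was not tested.

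KO and WT values did not overlap for 11 of the 43 genes in M2, a share near the 24.8% of all genes tested. All 11 lay higher in KO, but the share over all genes was not split by direction. These were Psmb3, Psmb5, Psmd3, Psmd7, Psmd8, Psmd13, Psmd9 and the 4 core chaperones. All 4 core chaperones had an unadjusted p under 0.05 in this comparison, with log2 fold changes of 0.23 for Psmg1 (SE 0.07, edgeR adjusted p = 0.111), 0.23 for Psmg2 (SE 0.07, edgeR adjusted p = 0.095), 0.26 for Psmg3 (SE 0.07, edgeR adjusted p = 0.0873) and 0.25 for Psmg4 (SE 0.10, edgeR adjusted p = 0.19). This comparison shares its M2 libraries with the IL-4 comparisons above, so these values are no separate evidence for the difference between the responses.

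All 7 beta subunits had values above 0 in M2, with a median of 0.11, and the 7 alpha subunits a median of 0.03, but 0 of these 14 passed the test. Psmb5 had 0.12 (95% interval -0.004 to 0.24, edgeR adjusted p = 0.26), Psmb6 0.11 (-0.04 to 0.27, edgeR adjusted p = 0.399) and Psmb7 0.05 (-0.08 to 0.18, edgeR adjusted p = 0.65). Psmb3, a non-catalytic beta subunit, had 0.18 (SE 0.07, edgeR adjusted p = 0.154). KO M2 library 1 had the highest share of counts in the 48 genes (0.671%, against 0.627% and 0.637% in the other KO M2 libraries). Without it the values were 0.06 for Psmb5, 0.03 for Psmb6 and 0.0067 for Psmb7.

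**Figure D4:**
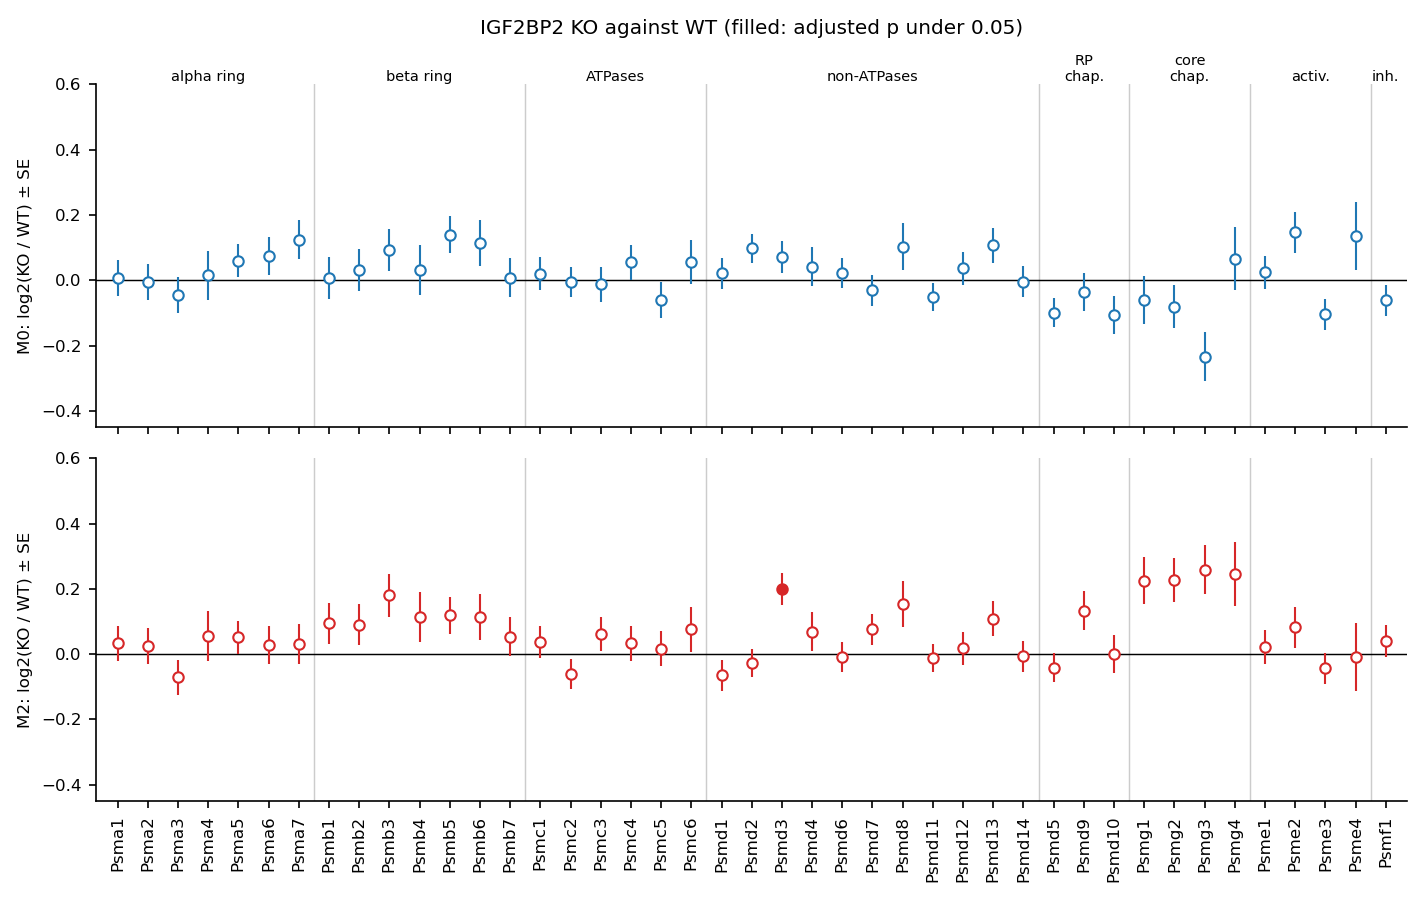
Log2 fold change of IGF2BP2 KO against WT with its SE for the 43 genes in M0 (top) and M2 (bottom), from 3 libraries per group, where a filled point passed an edgeR adjusted p under 0.05. Psmd3 in M2 is the only filled point, and Psmg1 to Psmg4 lie between 0.23 and 0.26 in M2 but between -0.23 and 0.07 in M0.

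The constitutive catalytic subunits were then set against their immunoproteasome counterparts in each library. IL-4 raised Psmb10 from 48.0 ± 3.15 to 99.6 ± 3.82 CPM in WT and from 51.3 ± 1.57 to 119 ± 11.0 CPM in KO (mean ± SD, n = 3), with log2 fold changes of 1.05 (edgeR adjusted p = 6.61e-08) and 1.21 (edgeR adjusted p = 1.51e-08). Psmb9 fell in WT by 0.27 on the log2 scale (SE 0.11, edgeR adjusted p = 0.0483), a call lost in 4 of the 6 fits without 1 library, namely WT M0 libraries 2 and 3 and WT M2 libraries 1 and 2 (adjusted p up to 0.215), and had -0.12 in KO (edgeR adjusted p = 0.339). Psmb8 had -0.14 in WT (edgeR adjusted p = 0.12), where it passed with the mouse block (0.0444), without WT M0 library 1 (0.0349) and with limma on log2(TPM + 1) (-0.17, adjusted p = 0.0319), and it had -0.04 in KO (edgeR adjusted p = 0.66).

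The ratio of Psmb7 to Psmb10 on the TPM scale was 3.93, 3.97 and 3.94 in WT M0 and 2.10, 2.10 and 1.84 in WT M2, and in KO it was 3.54, 3.68 and 3.97 in M0 and 1.69, 1.74 and 1.85 in M2. It was lower in all 6 M2 libraries than in all 6 M0 libraries. The ratio of Psmb6 to Psmb9 went the other way, from 6.01 ± 0.52 to 9.39 ± 0.84 in WT and from 6.89 ± 0.60 to 9.75 ± 1.03 in KO. The ratio of Psmb5 to Psmb8 was 1.44 ± 0.06 and 1.63 ± 0.09 in WT, without overlap, and 1.62 ± 0.05 and 1.71 ± 0.06 in KO, with overlap.

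In a two-sided exact permutation test, each comparison of ratios whose groups did not overlap gave p = 0.1, the smallest that 3 against 3 libraries allow, and 0.2 after adjustment over the 12 tests, so that this design cannot pass the threshold. Between genotypes, the ratio of Psmb5 to Psmb8 was higher in every KO M0 library than in every WT M0 library (exact permutation p = 0.1, adjusted 0.2), and the other 5 genotype comparisons overlapped.

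**Figure D5:**
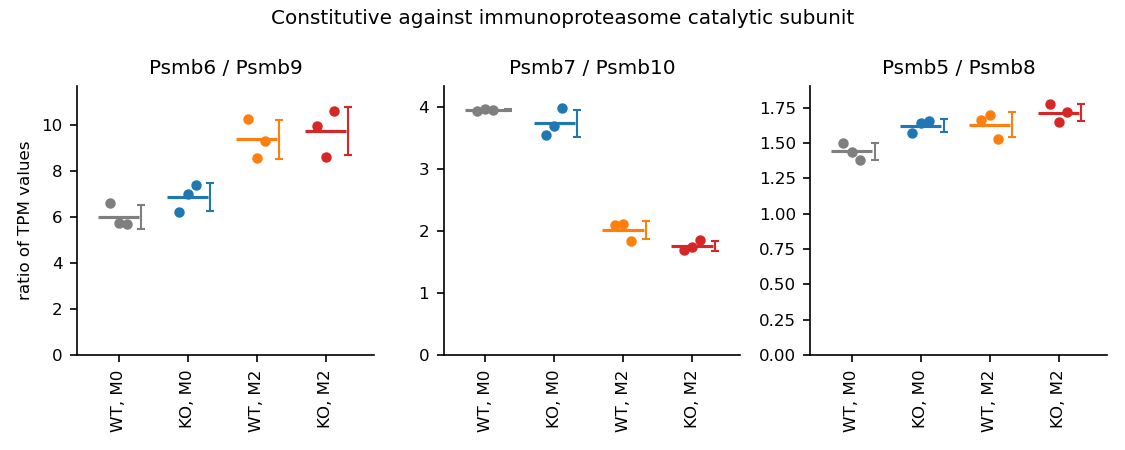
Ratio of the TPM of each constitutive catalytic subunit to that of its immunoproteasome counterpart, with 1 point per library, the group mean as a line and the SD as a bar (n = 3). With IL-4 the ratio of Psmb7 to Psmb10 fell from 3.95 to 2.01 in WT and from 3.73 to 1.76 in KO, while that of Psmb6 to Psmb9 was higher in M2 than in M0 libraries of both genotypes.

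A list of 36 genes of the wider pathway, with the immunoproteasome subunits, ubiquitin genes, shuttle factors, further proteasome subunits and regulators of proteasome expression, was counted beside the members. With IL-4, 11 of the 36 rose and 7 fell in WT, and 10 rose and 6 fell in KO, where the background of all genes tested was 24.9% and 25.1% in WT and 26.8% and 26.0% in KO. Pomp, the maturation factor on which the beta ring forms, rose by 0.39 in WT (SE 0.06, edgeR adjusted p = 0.000219) and 0.36 in KO (SE 0.06, edgeR adjusted p = 0.000291). Zfand5, an activator of the 26S proteasome, rose by 0.64 and 0.75. Ddi2, the protease that activates the protein of Nfe2l1, fell by 0.29 in WT and by 0.35 in KO on the log2 scale, and the shuttle factor Ubqln2 fell by 0.26 and 0.43.

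Of the transcription factors, Nfe2l2 fell by 0.48 on the log2 scale in both genotypes (edgeR adjusted p = 1.04e-05 in WT and 8.52e-06 in KO). Nfe2l1, which drives proteasome genes when the proteasome is inhibited, had 0.10 in WT (edgeR adjusted p = 0.111) and 0.13 in KO (edgeR adjusted p = 0.0364), and the KO call was lost in 4 of the 6 fits without 1 library, namely KO M0 libraries 1 and 3 and KO M2 libraries 2 and 3 (adjusted p up to 0.142). It was also lost without a filter, with only the 6 libraries and with limma on the TPM scale, where the value was 0.04 (adjusted p up to 0.637). Txnl1, a thioredoxin-like protein of the regulatory particle, fell by 0.29 in WT and 0.28 in KO on the log2 scale, and Zfand2a by 0.43 and 0.64. The ubiquitin receptor Adrm1 had 0.02 in WT (edgeR adjusted p = 0.705) and rose by 0.16 in KO (edgeR adjusted p = 0.0109), a call lost on the TPM scale (limma 0.09, adjusted p up to 0.0661), and the difference between its WT and KO responses did not pass the test (0.14, edgeR adjusted p = 0.306). The small lid subunit Sem1 had 0.00 and 0.17 and passed in neither, but in KO it passed in 1 of the 6 fits without 1 library (edgeR adjusted p = 0.0253).

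Between the genotypes in M0, Zfand2a of this list was higher in KO (0.25, edgeR adjusted p = 0.02), with the call lost without WT M0 library 2, KO M0 library 2 or KO M0 library 3 (adjusted p up to 0.0838) and with limma on the TPM scale (adjusted p up to 0.139). Pomp, Adrm1, Sem1, Nfe2l1, Psmb8, Psmb9 and Psmb10 had log2 fold changes between -0.11 and 0.10 in M0 and between -0.01 and 0.25 in M2, and did not pass the test. The value of 0.25 is that of Psmb10 in M2 (edgeR adjusted p = 0.0699), which passed with DESeq2 (adjusted p = 0.0229), with edgeR without a filter (0.0479) and with limma on log2(posterior mean TPM + 1) (0.0437).

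Ngly1 was called in M0 as well and was the only gene of the list called in M2. It removes sugar chains from misfolded glycoproteins and processes the protein of Nfe2l1. It had 23.6, 22.8 and 22.0 CPM in WT M0 and 19.3, 19.2 and 19.2 CPM in KO M0, but 19.0, 20.2 and 17.2 CPM in WT M2 and 22.3, 22.5 and 22.9 CPM in KO M2. It was thus lower in every KO library in M0 and higher in every KO library in M2. KO differed from WT by -0.25 on the log2 scale in M0 (SE 0.06, edgeR adjusted p = 0.0221) and 0.26 in M2 (SE 0.06, edgeR adjusted p = 0.0421). The M0 call was lost in 5 of 6 and the M2 call in 6 of 6 fits without 1 library (adjusted p up to 0.0902 and 0.144), and in M0 it remained without WT M0 library 3. Both calls were also lost without a filter and with limma on the TPM scale (adjusted p up to 0.118 in M0 and 0.182 in M2), and the M2 call with only the 6 libraries. Its IL-4 response was larger by 0.51 in KO than in WT (SE 0.08, edgeR adjusted p = 0.00818) and was called in each of the 12 fits without 1 library, but not on the TPM scale (limma adjusted p = 0.0782 on log2(TPM + 1)). Within KO its rise with IL-4 was 0.23 with edgeR (adjusted p = 0.00491) and 0.14 with limma on log2(TPM + 1), where it did not pass (adjusted p = 0.172).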

How the data were processed

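BMMs were sequenced as 12 directional poly(A) libraries, grouped by the sample labels (3 per group). Expected counts and TPM (maximum-likelihood and posterior mean) per gene were deposited by the authors for every library, made with Grape-nf on GRCm38/mm10, with FastQC 0.11.2 and DESeq2 1.40.2 named in the submitters' processing notes. The strand setting of the counting is not given in the sources used here. Tables of the authors' own comparisons (fold changes, p-values) were used for gene symbols only. Gene lengths per the file headers are effective and full lengths and were not used. The members and lists were chosen with earlier results of these data known.

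Expected counts were rounded and fitted in R 4.3.3 with edgeR 4.0.16 (filterByExpr, TMM, quasi-likelihood F test, 1 coefficient per group, 12 libraries, 12846 genes, Benjamini-Hochberg). The biological coefficient of variation was 8.08%. Each SE is the log2 fold change divided by the root of F, and 95% intervals use it. TPM was used for levels and ratios, tested by exact permutation in Python 3.11.15 (scipy 1.17.1). Scripts were tested on simulated data. Alternatives were DESeq2 1.42.0, limma 3.58.1 on log2(TPM + 1), log2(TPM + 0.1) and log2(posterior mean TPM + 1), RLE factors, no filter, at least 1 CPM in 3 libraries, only the 6 libraries compared, a replicate block, and leaving out each library. M0 and M2 libraries of the same number share a name in the labels (WT1 and WT1 with IL-4) and deviated together from their group means (r = 0.103 to 0.364 over genes), so the number was used as the mouse.

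Named genes were all members, with full values for Psmb5, Psmb6 and Psmb7, for the called members with the lowest adjusted p (up to 12 in each comparison) and for 7 fixed genes of the pathway list. Some genes of that list are counted but not reported by name here. In GENCODE M21, 11 of the 43 genes share exon bases with a further gene, 9 of them with one on the opposite strand. For Psmd9, Psmb5, Psmb7 and Psmd13 the shared part was over 10% of exon bases. The further gene lies on the opposite strand for Psmd9, Psmb7 (Nek6, 128 TPM) and Psmd13. For Psmb5 it lies on the same strand (Mir686, 47.0 TPM, 12.1% of exon bases). Reads of such stretches cannot be assigned with certainty.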

Additional observations from a re-analysis of the deposited data

Results flagged for a closer look

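For 2 genes the response to IL-4 differed between WT and IGF2BP2 KO macrophages by a test of the difference itself, 1 of 47 proteasome genes and 1 of 36 pathway genes, where 3.24% of all genes tested differed. The log2 fold change of Psmg3 with IL-4 was larger by 0.49 in KO than in WT (edgeR adjusted p = 0.026), where all 3 KO M2 libraries were above all 3 KO M0 libraries and the WT groups overlapped. This call was lost in 5 of the 12 fits without 1 library. For Ngly1 the response was larger by 0.51 in KO (edgeR adjusted p = 0.00818), with a fall in WT (-0.28, edgeR adjusted p = 0.00211) and a rise in KO (0.23, edgeR adjusted p = 0.00491). With limma on the TPM scale neither the difference (adjusted p up to 0.0808) nor the rise of Ngly1 in KO (adjusted p up to 0.185) passed.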

How the results depend on the processing

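Over all single values tested under an alternative, 1470 of 1620 kept their direction and their side of the threshold, 70 fell below it, 14 passed it and 66 changed sign. Every change of sign was of a value that did not pass the test. With 3 libraries per group and changes mostly under 0.4 on the log2 scale, calls near the threshold moved with the setting, and the cause was not tested.

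Between genotypes in M0, 0 genes were called with edgeR and 1 with limma on log2(TPM + 1), log2(TPM + 0.1) and log2(posterior mean TPM + 1), and 0 to 1 when 1 library was left out. In M2, where 1 was called, 0 were called with RLE factors, without a filter, with limma on log2(TPM + 1) or log2(TPM + 0.1), with only the 6 libraries and with the library number as a block, 2 with limma on log2(posterior mean TPM + 1) (Psmd3 and Psmg3), and 0 to 0 when 1 library was left out. For the difference between the IL-4 responses, 2 genes were called with the mouse as a replicate block in place of 1, and 0 to 1 when 1 library was left out. The block by mouse gave 24 called genes in place of 21 for IL-4 in each genotype, while over all genes the calls went from 6428 to 7016 in WT and from 6784 to 7472 in KO. Libraries of the 2 genotypes with the same number did not deviate together (r = -0.068 to 0.04 over genes), so the number does not pair them. Calls with IL-4 numbered 14 to 24 in WT and 15 to 24 in KO over all alternatives. Over all genes tested, DESeq2 called 713 in M2 and 816 for the difference, where edgeR called 344 and 416, and the mouse block called 1003 for the difference. With limma on log2(TPM + 1), log2(TPM + 0.1) and log2(posterior mean TPM + 1), 752, 700 and 755 were called in M0 in place of 1256, 70, 57 and 200 in M2, and 113, 113 and 163 for the difference, and with only the 6 libraries 165 were called in M2. Leaving out 1 library gave 461 to 1461 called genes in M0, 25 to 298 in M2 and 183 to 643 for the difference, with the lowest values without WT M0 library 2, KO M2 library 3 and WT M0 library 2.

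With posterior mean TPM, the summed core level was 4107 in KO M0 and 4091 in WT M2, and the regulatory level 3245 in KO M0, with 3330 and 3417 in M2 cells of WT and KO. On the strand of the gene alone, CCGGAA was present in 12 of 36 promoter windows (33.3%, against 18.6% of tested genes). TGACNNNGC was present in 3 (8.33%, against 9.19%). CCAAT was present in 11 (30.6%, against 25.6%), so its share was above that of tested genes on this strand but below it on both strands.

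The following log2 values changed sign. With limma on log2(TPM + 1), log2(TPM + 0.1) and log2(posterior mean TPM + 1), in this order, they were -0.0417, -0.0418 and -0.0404 for Psmb8 and -0.00151, -0.00152 and -0.00157 for Pomp between genotypes in M0. With IL-4 in WT they were -0.0527, -0.0531 and -0.0647 for Adrm1, -0.0516, -0.0519 and -0.0666 for Sem1, and -0.0436, -0.0440 and -0.0498 for Nfe2l1. With IL-4 in KO they were -0.0318, -0.0319 and -0.0286 for Psmb5 and -0.0554, -0.0567 and -0.0520 for Psmg2. For Nfe2l1 in M2 the first and second were -0.00214 and -0.00215, and for Psmb5 with IL-4 in WT the third was -0.00599. Nfe2l1 in M0 had 0.000406 with DESeq2, 8.48e-05 with RLE factors and 0.00511 without a filter, and Sem1 with IL-4 in WT had -0.00412 without a filter and -0.00543 with at least 1 CPM in 3 libraries.

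When 1 library was left out, values that changed sign ranged in M0 from -0.0356 to 0.0615 for Psmb7, from -0.0358 to 0.0949 for Psmb8, from -0.146 to 0.0349 for Psmb9, from -0.0115 to 0.0540 for Pomp, from -0.0508 to 0.0242 for Nfe2l1 and from -0.114 to 0.0248 for Psmg1. In M2 they ranged from -0.0165 to 0.156 for Psmb9, from -0.0928 to 0.0401 for Pomp and from -0.0230 to 0.131 for Sem1. With IL-4 they ranged in WT from -0.000464 to 0.0465 for Adrm1, from -0.0742 to 0.101 for Sem1 and from -0.0533 to 0.0655 for Psmg3, and in KO from -0.00991 to 0.0902 for Psmb5 and from -0.00416 to 0.0582 for Psmg2. The difference between the responses ranged from -0.0837 to 0.0165 for Psmb5, from -0.0883 to 0.0548 for Psmb6, from -0.00812 to 0.0907 for Psmb7 and from -0.106 to 0.0280 for Pomp.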
